A study of Bos taurus with 28 samples.

Results

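Translation factors and aminoacyl-tRNA synthetases were followed in the liver of dairy cows early after calving, some made ketotic by restricting their feed and some healthy. Genes were taken as members where the whole symbol in the platform annotation had the form of an initiation factor (EIF), an elongation factor (EEF), a release factor (ETF1 or GSPT1) or a transfer RNA synthetase of the HARS type. That gave 72 members of 8073 genes with a single symbol on the array, and 66 of the 72 could be tested among 6958 tested genes. The other 6, EIF2AK1, EIF2B1, EIF2B4, EIF3G, GARS1 and LARS2, had values in fewer than 5 cows of a group. ETF1 and EEF1A1 had no named probe. The symbols AARSD1 and FARSA match the pattern only in part and were no members. A probe shared by FARSB and a second gene, and one shared by TSFM and a second gene, were not used for naming.

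Both groups were multiparous Holstein cows found healthy on day 4 after calving and assigned at random, 7 per group. Cows of the ketosis group then received 50% of their day 4 intake until clinical signs of ketosis or day 14 at the latest. Healthy cows were fed ad libitum. The restriction began on day 5 by the design text and on day 4 by the sample labels. The sources used here do not say on which day the liver was sampled, and reduced intake and the ketotic state cannot be told apart. Each liver was hybridised on 2 cDNA arrays with the dyes exchanged, against a common reference RNA from cattle tissues. A value is the log2 ratio of liver to reference, with the array median set to 0, averaged over both arrays of a cow. It is therefore a difference from the reference, and values of different genes do not rank their abundance. Differences are ketotic minus healthy, with limma's standard error (SE), and a gene was counted as changed at an adjusted p under 0.05 (limma, Benjamini-Hochberg over all tested genes).

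The direction of the ratios is likely, not stated: it rests on the dyes in the titles and on hepatocyte markers, whose median lay above the array median on 28 of 28 arrays (lowest 2.58, median 6.04). Of 15 hepatocyte markers tested, ALB and APOA1 rose in ketotic cows and none fell, and their median difference was 0.59. In a fit without healthy cow 7, 2 hepatocyte markers rose and 1 fell, and the median difference was 0.14. Healthy cow 7 stood apart, with a median correlation of 0.408 with its group across genes against 0.846 to 0.890 for the other cows. Its hepatocyte marker median was also the lowest of the healthy cows, at -2.65 with each gene centred between the group means, and its stellate cell and fibroblast median the highest, at 2.24. Spots without a usable ratio, averaged over a cow's 2 arrays, made up 9.19% to 16.6% in healthy cows and 12.2% to 25.0% in ketotic cows. Ketotic cow 5 was the highest. Single arrays ran from 3.03% to 18.0% in healthy and from 8.97% to 30.2% in ketotic cows. The 2 arrays of healthy cow 7 stood at 3.03% and 15.3%. The spread of the ratios was also wider in ketotic cows. Averaged in the same way, the median absolute deviation was 0.790 to 1.14 against 0.660 to 0.893. The part of these differences in the results below was tested only by the alternative settings named there. Fewer cells of a type and less RNA per cell cannot be told apart in whole liver RNA.

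Protein synthesis begins when initiation factors bring the initiator transfer RNA and the messenger RNA to the small ribosomal subunit. Elongation factors then deliver each charged transfer RNA and move the ribosome along, release factors end the chain, and the aminoacyl-tRNA synthetases join each amino acid to its transfer RNA. The liver makes most plasma proteins, and its translation is controlled by nutrients and hormones, largely through the eIF2 kinases and the cap-binding factor EIF4E.

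Of the 66 members tested, 16 fell in ketotic cows and 1 rose. The share that fell was 24.2%, against 12.4% of all tested genes, and the share of all genes that rose was 0.920%. The median difference of the members was -0.45, against -0.18 over all genes. A negative difference was found for 58 members (87.9%, against 67.2% of all genes), and 52 members lay below the median of all genes. In 6 of the 66 members every ketotic cow lay below every healthy cow, against 375 of the 6958 genes tested (5.39%). No member had every ketotic cow above every healthy cow, against 0.316% of all genes. WARS1 and EIF3L were the members lower by a factor of 2 or more, and WARS1 did not pass the threshold. Most falls were by less than a factor of 2.

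**Figure D1:**
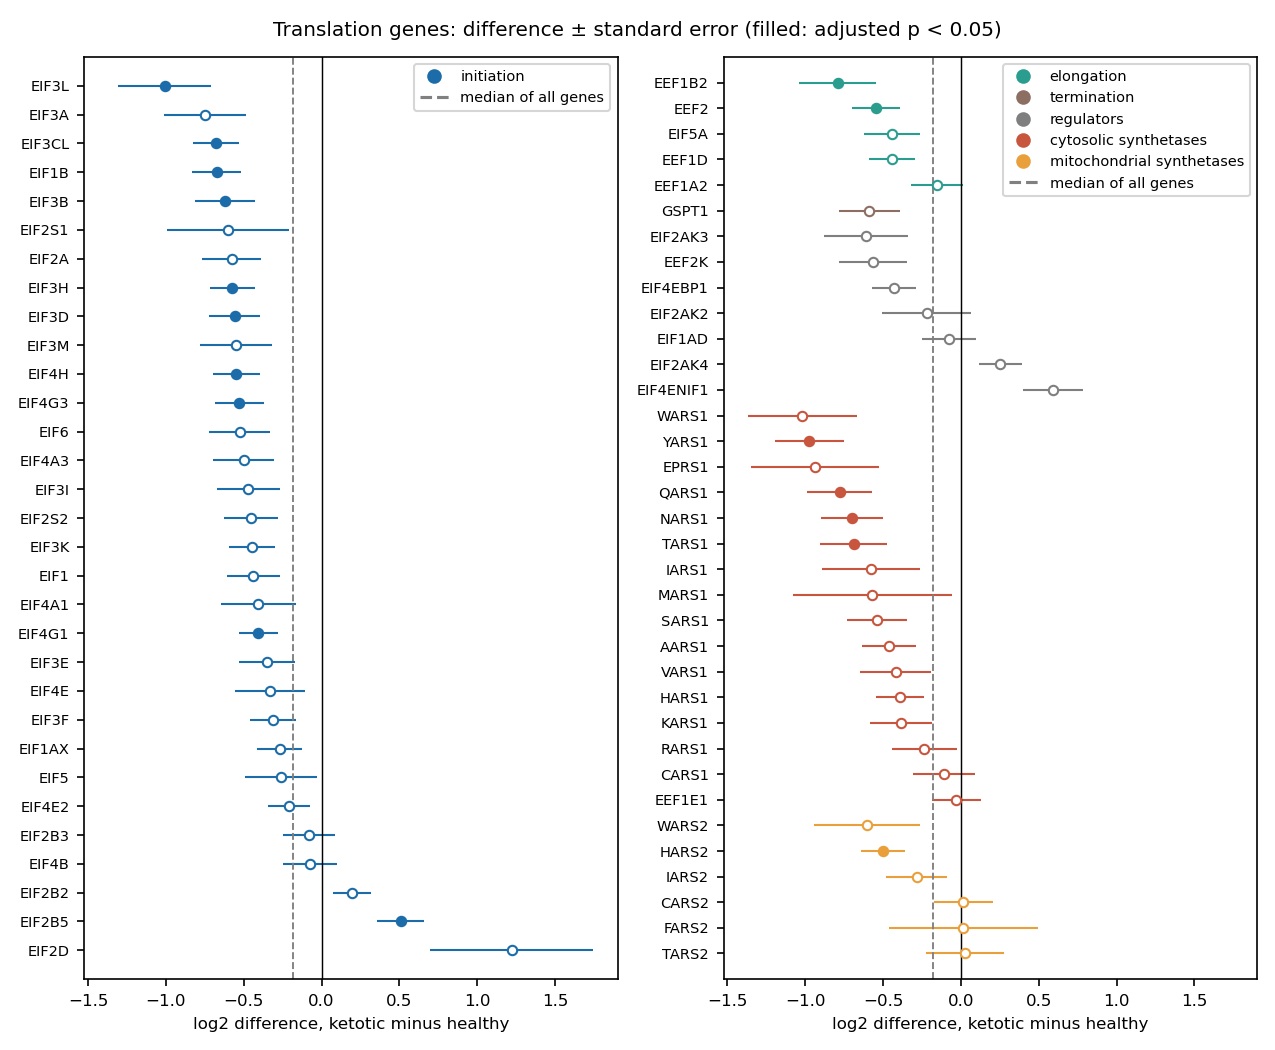
Log2 difference between ketotic and healthy cows for each of the 66 tested members, grouped by role, with limma's standard error as the bar; filled points passed the threshold. In this setting all 11 EIF3 subunits and all 16 genes of the cytosolic synthetase group lie below 0 (CARS1, EEF1E1, IARS1, MARS1 and EIF3F do not in every other setting), while EIF2B5 is the filled point above 0. Of all tested genes 67.2% had a negative difference.

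How many members passed depended on how the arrays were brought to one scale. When arrays were centred on the probes measured on all arrays, 4 members fell and 2 rose, and the share that fell was 6.06%, against 7.09% of all genes. When arrays were instead centred on their own medians, as reported, and then given one spread, 5 fell and 1 rose. That share was 7.58%, against 7.40% of all genes. With the share of spots without a ratio as a covariate, no member passed, while 2.30% of all genes fell. The median of all genes itself was -0.58 in the values as deposited, -0.05 after centring on the common probes and -0.18 as reported. The median of the members stayed below that of all genes under each of these, by 0.27 as deposited, as reported and with the common probes, by 0.15 with the covariate, and by 0.11 with one spread. The members' share of falls was thus well above that of all genes with the array median and the deposited values, below it with the common probes and about equal to it with one spread. Under 6 scalings, counting the reported one, 49 of the 66 members had a negative difference in all, among them all 16 that fell. YARS1, QARS1, EIF3CL and EIF1B fell under all 6. The same counts over all genes were not made, so these are not set against a share of all genes. Several of the scalings differ only by a shift of each array and are not independent.

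Single cows also moved the count. Without healthy cow 7, 24 members fell (36.4%, against 18.4% of all genes) and 1 rose, while 1.50% of all genes rose. The 16 and the 1 of the full comparison were all among them. The 8 members added were EEF1D, EIF2A, EIF3A, EIF3I, EIF3K, EIF3M, GSPT1 and WARS1. The count of members that fell was 8 without ketotic cow 5, or 12.3% against 9.85% of all genes, and these 8 were EIF1B, EIF3CL, EIF3H, EIF4H, HARS2, NARS1, QARS1 and YARS1. It was 6 without healthy cow 1, and the members' share was then 9.09%, against 9.35% of all genes. It was 7 without healthy cow 6 (10.6% against 8.92%) and 7 without ketotic cow 7 (10.8% against 9.39%). It was 9 without healthy cow 3 (13.6% against 9.65%), 8 without healthy cow 5 (12.1% against 9.83%) and 8 without ketotic cow 2 (12.1% against 9.82%). The count was 19 without ketotic cow 6 (28.8% against 13.6%) and 13 without ketotic cow 1 (20% against 11.6%). Leaving out ketotic cow 4 or healthy cow 2 gave 12 (18.5% against 11.2%, and 18.2% against 10.4%). Leaving out ketotic cow 3 or healthy cow 4 gave 11 (16.9% against 12.7%, and 16.7% against 11.5%). The members' share was thus below that of all genes without healthy cow 1 and above it, by varying amounts, in the other fits.

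**Figure D2:**
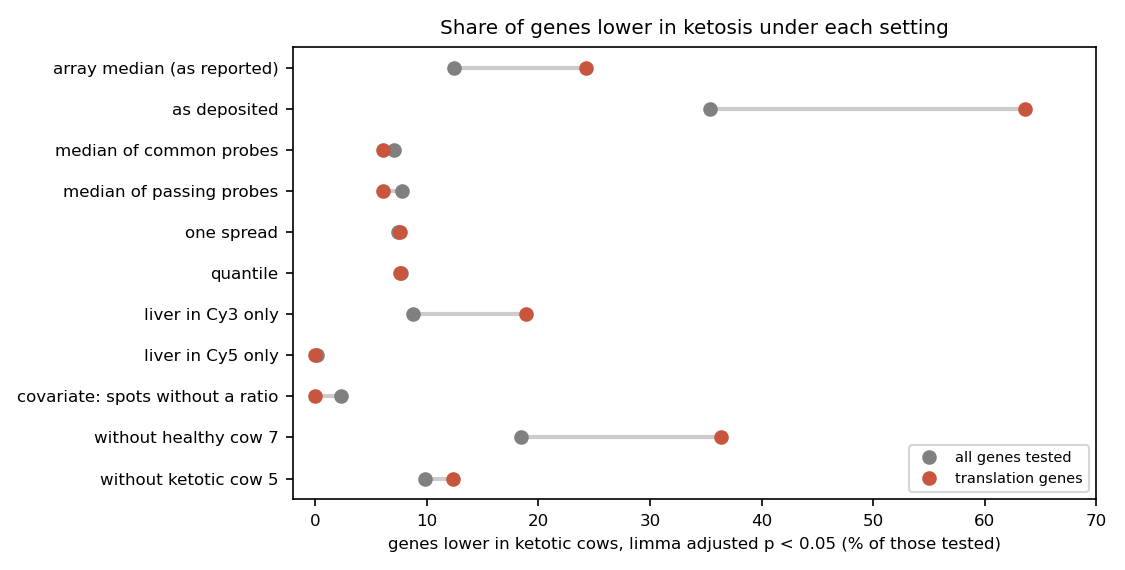
Percent of the translation genes (red) and of all tested genes (grey) that fell in ketotic cows at a limma adjusted p under 0.05, for the reported setting and 10 others. The red point lies well to the right of the grey one with the array median (24.2% and 12.4%) and the deposited values, and the points nearly coincide with the common probes, one spread and quantile scaling.

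Initiation was the largest role, with 31 tested members. Of these 9 fell (29.0%, against 12.4% of all genes) and EIF2B5 rose, while 0.920% of all genes rose. The median difference was -0.45. EIF3 is the large complex that holds the small ribosomal subunit open for messenger RNA. All 11 tested subunits had a negative difference as reported, against 67.2% of all genes. Of the 11, 5 fell (EIF3B, EIF3CL, EIF3D, EIF3H and EIF3L), or 45.5% against 12.4% of all genes, and the median was -0.56. Without healthy cow 7, 9 of the 11 fell (81.8%, against 18.4% of all genes). With the common probes or with one spread, EIF3CL was the single subunit that fell, and the medians were -0.43 and -0.31.

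EIF3CL, a near copy of the EIF3C core subunit whose transcripts the probe may not tell apart, had the smallest p of all members. Its values ran from -0.73 to -0.29 in healthy cows (median -0.58) and from -1.66 to -0.84 in ketotic cows (median -1.14). The groups did not overlap, and EIF3CL fell by 0.68 ± 0.146 (SE, 7 cows per group), a factor of 1.60 (limma adjusted p = 0.00932). In EIF3H, a regulatory subunit, 6 healthy cows lay between -0.98 and -0.71 (median -0.90) and 7 ketotic cows between -1.64 and -0.90 (median -1.49). The overlap came from ketotic cow 1 alone, at -0.90, with the next ketotic cow at -1.45. EIF3H fell by 0.57 ± 0.144 (adjusted p = 0.0198, limma).

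EIF3D, the subunit that can itself bind the cap of some messenger RNAs, lay between -1.10 and -0.75 in healthy cows (median -0.97), and the ketotic cows reached no higher than -1.11 (median -1.45). It fell by 0.56 ± 0.163 (limma adjusted p = 0.0347) with no overlap. EIF3L had the largest fall of the complex, 1.01 ± 0.298, a factor of 2.01 (limma adjusted p = 0.0363). Part of that size came from healthy cow 7, which stood at 1.19 while the other healthy cows reached no higher than -0.49; without it EIF3L fell by 0.74 ± 0.189 (limma adjusted p = 0.0146). EIF3B, a scaffold subunit, fell by 0.62 ± 0.193 (limma adjusted p = 0.0453). The remaining subunits, EIF3A, EIF3E, EIF3F, EIF3I, EIF3K and EIF3M, had differences between -0.75 and -0.31 and adjusted p of 0.0564 or more. The 2 probes of EIF3F disagreed, at 0.18 and -0.88, so its mean of -0.31 describes neither.

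The EIF4 group was formed by symbol, and it includes the factors that recognise and unwind the capped end of messenger RNA. Not every gene in it need have that role. All 8 tested members had a negative difference as reported, against 67.2% of all genes. Of the 8, EIF4H, EIF4G1 and EIF4G3 fell (37.5%, against 12.4% of all genes). The sign of EIF4A1, EIF4B, EIF4E and EIF4E2 turned under at least 1 other setting, that of EIF4B with the common probes, one spread, quantile scaling and Cy5 only. EIF4H, a helper of the EIF4A helicase, lay between -0.99 and -0.58 in healthy cows (median -0.67) and between -1.81 and -0.99 in ketotic cows (median -1.23). The groups touched at about -0.99, and EIF4H fell by 0.55 ± 0.150 (limma adjusted p = 0.0266). The scaffold EIF4G1 fell by 0.41 ± 0.126 (limma adjusted p = 0.045) and its relative EIF4G3 by 0.53 ± 0.156 (limma adjusted p = 0.0363); the 2 probes of EIF4G3 gave -0.34 and -0.64. The cap-binding protein EIF4E itself did not pass: 6 healthy cows ran from -2.13 to -0.997 and 7 ketotic cows from -2.64 to -1.43, a difference of -0.33 ± 0.223 (limma adjusted p = 0.357). The helicase EIF4A1 stood at -0.41 ± 0.241 and EIF4B, its cofactor, at -0.08 ± 0.173.

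EIF2 carries the initiator transfer RNA, and EIF2B recharges it with GTP. These 5 tested genes differed among themselves, with a median of -0.08. EIF2B5, the catalytic subunit of EIF2B, was the 1 member that rose. Its values ran from -0.79 to -0.02 in healthy cows (median -0.53) and from -0.19 to 0.26 in ketotic cows (median 0.02), so the groups overlapped in their margins. EIF2B5 was 0.51 ± 0.151 higher in ketotic cows, a factor of 1.42 (limma adjusted p = 0.0365). It also passed under 4 of the other 5 scalings; in the values as deposited the difference was 0.11 (limma adjusted p = 0.722). The call was lost with the liver in Cy3 only (limma adjusted p = 0.219), in Cy5 only (0.159) and with the covariate (0.0974). It was also lost without ketotic cow 5 (limma adjusted p = 0.0601), and without any one of healthy cows 3, 5 and 6 and ketotic cows 2, 3 and 4. Of its partner subunits, EIF2B2 stood at 0.20 ± 0.124 and EIF2B3 at -0.08 ± 0.167, neither past the threshold. The EIF2 subunit EIF2S1, whose phosphorylation lowers initiation, had wide groups, from -1.49 to 0.50 in healthy and from -2.51 to -0.09 in ketotic cows. Its difference was -0.60 ± 0.395 (limma adjusted p = 0.342). EIF2S2 stood at -0.45 ± 0.174 (limma adjusted p = 0.0979).

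Of the 7 remaining initiation genes, EIF1B fell (14.3%, against 12.4% of all genes). EIF1B is a close relative of EIF1, which guards the choice of start codon. Healthy cows lay between -0.51 and -0.05 (median -0.23) and ketotic cows between -1.59 and -0.58 (median -0.92), with no overlap. EIF1B fell by 0.67 ± 0.157, a factor of 1.59 (limma adjusted p = 0.0132). Its paralogue EIF1 stood at -0.44 ± 0.171 (limma adjusted p = 0.105); a cDNA probe may bind both. EIF2D had the highest difference of all members, 1.22 ± 0.524, from 5 ketotic and 6 healthy cows. Ketotic cow 5 reached 3.64 there while the ketotic median was 1.16, and EIF2D did not pass (limma adjusted p = 0.146). With the covariate its difference was -0.25.

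**Figure D3:**
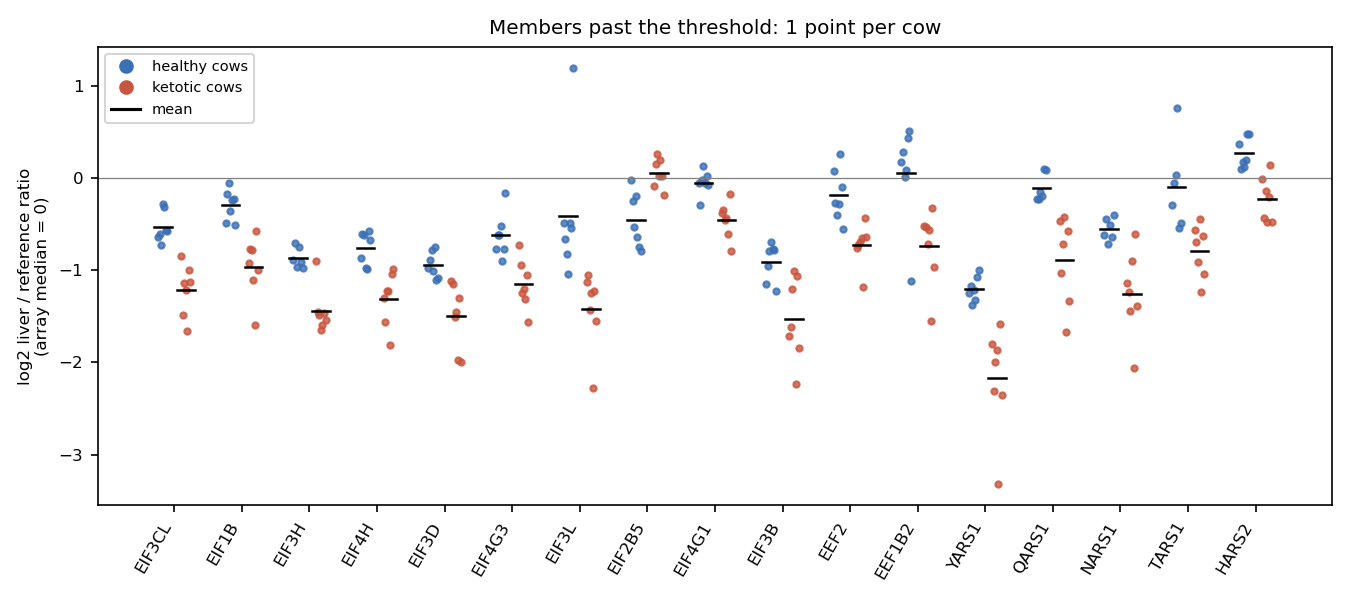
Log2 liver to reference ratio of each cow (points; array median at 0) and the group mean (bars) for the 17 members past the threshold, ordered by role. In YARS1, QARS1, EIF3CL, EIF1B, EIF3D and EIF3L the ketotic cows all lie below the healthy cows, and healthy cow 7 is the single high point of EIF3L at 1.19 and the low point of EEF1B2 at -1.12.

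Elongation was covered by 5 tested members, of which EEF2 and EEF1B2 fell (40%, against 12.4% of all genes). All 5 had a negative difference as reported, against 67.2% of all genes, and the median was -0.44. The sign of EEF1A2 turned with quantile scaling and with Cy5 only. EEF2 is the factor that moves the ribosome by one codon. Its values ran from -0.55 to 0.25 in healthy cows (median -0.27) and from -1.19 to -0.44 in ketotic cows (median -0.70), and the groups overlapped. EEF2 fell by 0.55 ± 0.155, a factor of 1.46 (limma adjusted p = 0.0312). The lowest value belonged to ketotic cow 5, with the next at -0.76, and without that cow the adjusted p was 0.0529 (limma).

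EEF1B2 and EEF1D are exchange subunits that reload the transfer RNA carrier EEF1A with GTP. In EEF1B2 healthy cow 7 stood at -1.12, within the ketotic range of -1.55 to -0.33, while the other healthy cows lay between 0.01 and 0.51. EEF1B2 fell by 0.79 ± 0.247 (limma adjusted p = 0.0453), and without healthy cow 7 by 0.99 ± 0.182 (limma adjusted p = 0.00312). EEF1D lay between -0.74 and -0.17 in healthy and between -1.21 and -0.66 in ketotic cows, a difference of -0.44 ± 0.148 that did not pass (limma adjusted p = 0.0606). EIF5A, which relieves stalled ribosomes, differed by -0.44 ± 0.180 (limma adjusted p = 0.12), between -0.87 and 0.13 in healthy and between -1.18 and -0.27 in ketotic cows. EEF1A2 stood at -0.15 ± 0.167. Its sequence is close to that of EEF1A1, which had no named probe, so the carrier itself is uncertain here.

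Termination rested on GSPT1, the GTPase partner of the release factor. Values ran from -0.76 to -0.14 in 6 healthy cows (median -0.37) and from -1.53 to -0.29 in 7 ketotic cows (median -1.06). The difference was -0.59 ± 0.193 (limma adjusted p = 0.0584). Healthy cow 7 had no value for GSPT1. When that cow was left out of the whole fit, the difference was the same and the adjusted p was 0.0371 (limma).

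The cytosolic synthetase group held 16 tested genes, counting EEF1E1, a scaffold protein of the complex that joins several synthetases. All 16 differences were negative as reported, against 67.2% of all genes. Of the 16, 4 fell (YARS1, QARS1, NARS1 and TARS1), or 25% against 12.4% of all genes, and the median was -0.55. The sign of CARS1, EEF1E1, IARS1 and MARS1 turned with the covariate, and that of CARS1 and EEF1E1 also with the common probes. With the common probes and with one spread, YARS1 and QARS1 were the 2 that fell, and the medians were -0.42 and -0.29. Without ketotic cow 5 the median was -0.34 and 3 fell.

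YARS1, which charges tyrosine, had the clearest separation of these. Healthy cows lay between -1.38 and -0.997 (median -1.22) and ketotic cows between -3.32 and -1.59 (median -1.99). YARS1 fell by 0.97 ± 0.220, a factor of 1.96 (limma adjusted p = 0.0114). The lowest value was that of ketotic cow 5, and without it the fall was 0.78 (limma adjusted p = 0.0059). QARS1, the glutamine enzyme, also had no overlap: 6 healthy cows ran from -0.23 to 0.09 (median -0.18) and 7 ketotic cows from -1.67 to -0.42 (median -0.72). QARS1 fell by 0.78 ± 0.207, a factor of 1.72 (limma adjusted p = 0.0245).

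NARS1, the asparagine enzyme, lay between -0.71 and -0.40 in 6 healthy cows (median -0.57) and between -2.06 and -0.61 in 7 ketotic cows (median -1.24). The groups overlapped slightly, and NARS1 fell by 0.70 ± 0.199 (limma adjusted p = 0.0329). TARS1, the threonine enzyme, lay between -0.55 and 0.76 in 6 healthy cows (median -0.18) and between -1.23 and -0.45 in 7 ketotic cows (median -0.69). It fell by 0.69 ± 0.214 (limma adjusted p = 0.0462), the closest to the threshold of the members that fell. In QARS1, NARS1 and TARS1 healthy cow 7 had no value.

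The other 12 cytosolic genes did not pass, with differences between -1.02 and -0.03. WARS1, the tryptophan enzyme, which is also induced by interferon, had the largest negative difference of the members, -1.02 ± 0.349 (limma adjusted p = 0.0654). Healthy cow 7 stood there at -0.29 against a healthy median of -2.58. Without that cow WARS1 fell by 0.68 ± 0.191 (limma adjusted p = 0.0224). WARS1 also had the lowest ratio to the reference in healthy cows, a mean of -2.31. EPRS1, the glutamate and proline enzyme, had a difference of -0.94 with an SE of 0.411, and its ketotic cows ran from -3.93 to -0.88. SARS1, AARS1 and HARS1 stood at -0.54 ± 0.193, -0.46 ± 0.172 and -0.39 ± 0.152. CARS1 and EEF1E1 were the nearest to 0, at -0.11 ± 0.199 and -0.03 ± 0.158; the 2 probes of EEF1E1 pointed opposite ways, at 0.18 and -0.17.

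Mitochondria use their own synthetases, encoded in the nucleus, to translate the respiratory chain subunits of mitochondrial DNA. Of 6 tested mitochondrial synthetases 1 fell, a share of 16.7% against 12.4% of all genes. The difference was negative in 3 and positive in 3, and the median was -0.14. That median was 0.05 above the median of all genes, but without healthy cow 7 it was -0.38, below the -0.19 of all genes. Over the other settings it ran from -0.54 as deposited to 0.01 with values in at least 3 cows per group, and it was -0.30 with the liver in Cy3 only and -0.002 in Cy5 only. No direction relative to all genes is therefore given. The gene that fell, HARS2, charges histidine. Its healthy cows lay between 0.10 and 0.47 (median 0.19) and its ketotic cows between -0.48 and 0.14 (median -0.21). HARS2 fell by 0.50 ± 0.139 (limma adjusted p = 0.0282). If values at the deposited ceiling are kept as ratios, its difference is 0.08, so the fall rests on reading those values as missing. Its cytosolic neighbour in function, HARS1, stood at -0.39 (limma adjusted p = 0.106); the difference between the pair was not tested.

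The other 5 mitochondrial synthetases did not pass. WARS2 differed by -0.60 ± 0.341 (limma adjusted p = 0.265), with healthy values from -1.55 to 0.53 and ketotic values from -2.43 to -0.998 in 6 cows. Its highest healthy value was that of healthy cow 7, and without that cow the difference was -0.37. IARS2 differed by -0.29 ± 0.198 (limma adjusted p = 0.373), with healthy cows between -0.91 and 0.23. Its ketotic cows lay between -1.25 and -0.21, where ketotic cow 5 was the lowest and the next stood at -0.54. TARS2 ran from -0.04 to 0.68 in healthy and from -0.81 to 1.11 in 6 ketotic cows, a difference of 0.03 ± 0.252 whose sign changed between settings. CARS2 and FARS2 stood at 0.01 ± 0.191 and 0.02 ± 0.480, and their signs turned too: CARS2 was -0.39 as deposited and -0.23 with quantile scaling, and FARS2 was -0.39 without healthy cow 7. FARS2 had the highest ratio to the reference of the members in healthy cows, a mean of 0.71. Whether mitochondrial and cytosolic synthetases differed from each other was not tested.

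**Figure D4:**
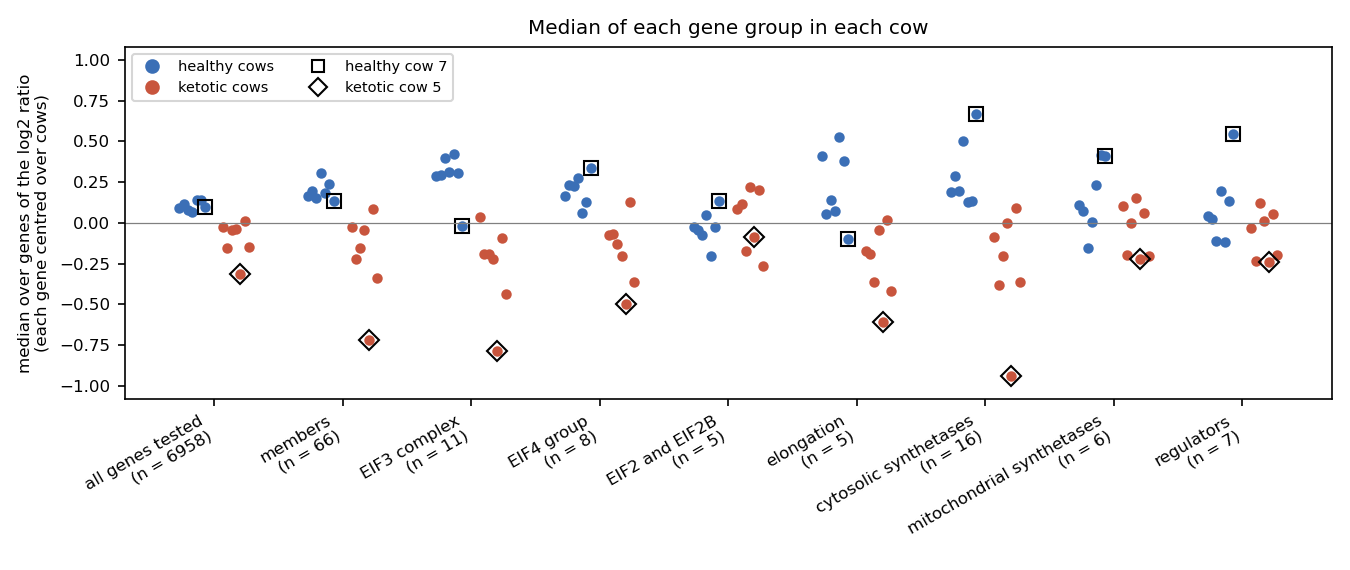
Median over the genes of each group in each cow, after each gene was centred between the group means; circles are cows, with healthy cow 7 boxed and ketotic cow 5 in a diamond. Ketotic cow 5 is the lowest cow for the members (-0.72) and the cytosolic synthetases (-0.94), while the groups of EIF2 with EIF2B and of the mitochondrial synthetases overlap widely.

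Cow by cow, the member median lay between 0.13 and 0.31 in healthy cows and between -0.72 and 0.09 in ketotic cows, with each gene centred between the group means. Every ketotic cow was below every healthy cow, and the same held for the all-gene median, from 0.07 to 0.14 and from -0.31 to 0.01. In the EIF3 complex healthy cow 7 stood at -0.02 and the other healthy cows between 0.28 and 0.43, against -0.79 to 0.03 in ketotic cows. In the cytosolic synthetases the healthy cows ran from 0.13 to 0.67 and the ketotic cows from -0.94 to 0.09. Ketotic cow 5 was the lowest in both. It was also the lowest ketotic cow in the all-gene median (-0.31) and in the macrophage marker median (-0.80). The same held for the bile duct (-0.91), endothelial (-1.02) and stellate cell and fibroblast (-0.81) medians. It did not hold for the hepatocyte, lymphocyte, neutrophil and blood medians. Of 9 macrophage markers tested, CD74, LAPTM5, CTSS and AIF1 fell, and the per-cow median of the list was -0.80 to -0.16 in ketotic and -1.03 to 0.96 in healthy cows, with healthy cow 7 the lowest. The part of the macrophage markers in the translation genes' falls was not tested.

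The 7 tested genes that act on the factors are called regulators here. None of them passed, and their median was -0.22. It was -0.35 without healthy cow 7, -0.05 without healthy cow 4, -0.10 without ketotic cow 5, -0.62 as deposited, -0.09 with the common probes and 0.02 with the covariate. EIF4EBP1, which holds EIF4E back when nutrients are short, lay between -0.03 and 0.87 in healthy cows (median 0.41) and between -0.17 and 0.16 in ketotic cows (median -0.04). Its difference was -0.43 ± 0.144 (limma adjusted p = 0.0596). EIF4ENIF1, which carries EIF4E into the nucleus and into RNA granules, lay between -0.42 and -0.18 in healthy and between -0.49 and 0.89 in ketotic cows. Its difference of 0.59 ± 0.194 did not pass as reported (limma adjusted p = 0.056) and passed upward under 3 of the other 5 scalings. EIF4ENIF1 rests on 1 probe; a second, measured in 2 ketotic cows, gave -0.59.

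EEF2K, the kinase that switches EEF2 off, differed by -0.56 ± 0.216 (limma adjusted p = 0.0979), with healthy cows from -0.12 to 0.81 and ketotic cows from -0.64 to 0.66. Its probes gave -0.90 and -0.16. Of the kinases of EIF2S1, EIF2AK3, the sensor of the endoplasmic reticulum, differed by -0.61 ± 0.270 (limma adjusted p = 0.149), between -1.29 and 0.48 in healthy and between -1.67 and -0.35 in ketotic cows. EIF2AK4, the sensor of uncharged transfer RNA, differed by 0.25 ± 0.138 (limma adjusted p = 0.243), between -0.52 and -0.10 in healthy and between -0.35 and 0.40 in ketotic cows. A second EIF2AK4 probe, measured in 3 ketotic and 2 healthy cows, gave -0.10, and the sign of the first turned in the values as deposited and with Cy5 only. EIF2AK2, activated by double-stranded RNA, stood at -0.22 ± 0.287. Arrays of this kind measure messenger RNA, so the phosphorylation through which these proteins act was not measured.

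In healthy liver 53 of the 66 members had a ratio below the array median (80.3%, against 53.9% of all genes). Falls by band of healthy ratio were 1 of 8 members under -1, 7 of 23 from -1 to -0.5, 6 of 22 from -0.5 to 0, 2 of 10 from 0 to 0.5 and none of 3 above 0.5. Over all genes the shares were 13.6%, 17.5%, 15.1%, 10.6% and 7.80% in the same order. The median difference of the members in the bands from -1 to -0.5 and from -0.5 to 0 was -0.54 and -0.44, against -0.29 and -0.19 for all genes there. Genes with a ratio a little below the array median thus fell more often over the whole array, and most members lay in those bands. Within them 7 of 23 and 6 of 22 members fell, against 17.5% and 15.1% of all genes. The part of the healthy ratio in the members' falls was not tested.

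**Figure D5:**
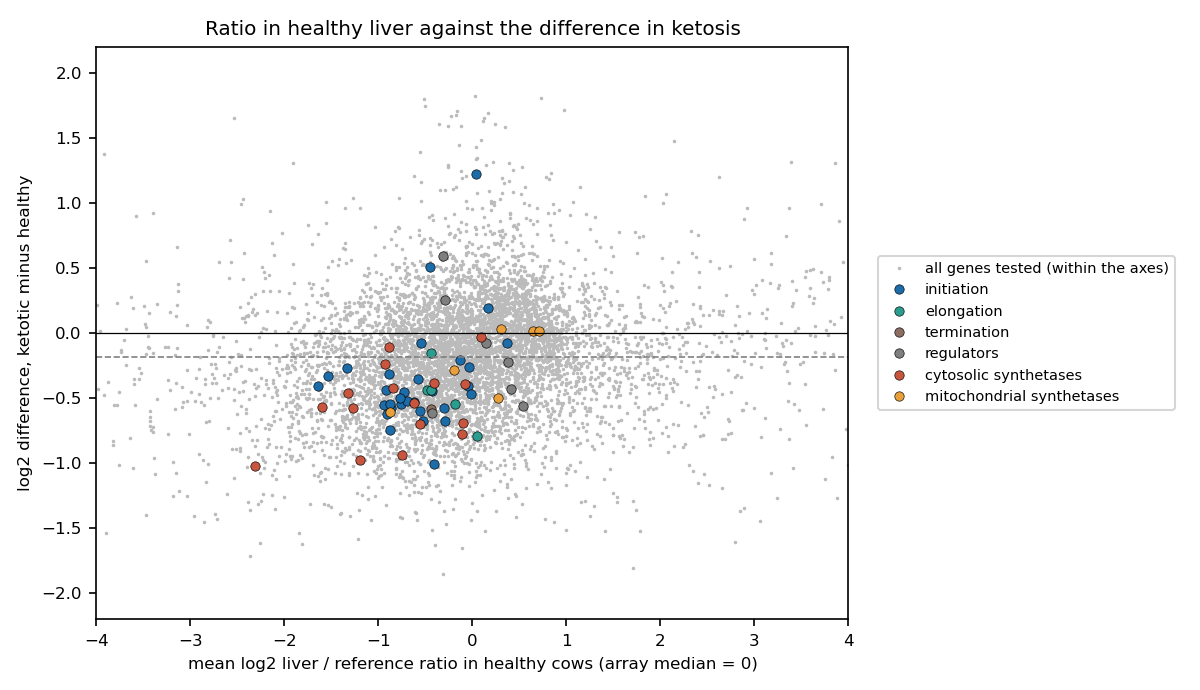
Mean log2 ratio of liver to reference in healthy cows (array median at 0) against the log2 difference between ketotic and healthy cows, for all tested genes within the axes (grey) and the 66 members (coloured by role). Most members sit left of 0 and below the dashed line at -0.18, the median of all genes.

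Other genes of the translation machinery, from a list drawn up for this comparison, gave 8 falls and no rise among 37 tested. The share that fell was 21.6%, against 12.4% of all genes, and the median was -0.34. Without healthy cow 7, 11 fell (29.7%, against 18.4% of all genes). Their falls under the other scalings, in each dye and with the covariate were not examined. RACK1, a scaffold on the small ribosomal subunit, fell by 0.91 ± 0.156 (limma adjusted p = 0.00336). ATF4, the transcription factor that induces many synthetase genes when EIF2S1 is phosphorylated, fell by 1.04 ± 0.201 (limma adjusted p = 0.00563). AIMP2, a scaffold of the multi-synthetase complex that holds QARS1, fell by 1.15 ± 0.253 (limma adjusted p = 0.011). In each of these 3 every ketotic cow lay below every healthy cow, which held for 3 of the 37 genes and for 5.39% of all genes. They also had the smallest p of the list, so the separation is no further evidence. TPT1, BTF3, RPS6KA1, MTRFR and PAIP2 fell by 0.90, 0.96, 0.83, 0.75 and 0.53. RPS6KB2 had the smallest p of those with a positive difference, at 0.25 ± 0.130 (limma adjusted p = 0.214). FARSA, a subunit of the phenylalanine enzyme, stood at -0.33.

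For comparison, 29 of 55 cytosolic ribosomal protein genes fell (52.7%) and none rose, with a median of -0.60. Of 63 mitochondrial ribosomal protein genes 16 fell (25.4%), with a median of -0.40. Over all genes 12.4% fell. As reported, the EIF3 complex (5 falls in 11, median -0.56) and the cytosolic synthetases (4 in 16, or 25%, median -0.55) had medians near that of the cytosolic ribosomal proteins. Without healthy cow 7 the medians of these groups, in the same order, were -0.60, -0.46 and -0.65. The ribosomal proteins were not examined under the other settings. No test of a difference between these groups was made.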

How the data were processed

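The 28 arrays were deposited as tables of log2 ratios of both dye channels, 1 per spot; per the deposited values they were not centred (array medians from -1.05 to 2.16), and the sources used here do not give the authors' own normalisation. The sign was turned where the liver carried Cy3. Empty cells (103458) and values at a ceiling of 16.6 (6245) were read as no ratio. Adjacent spots were averaged (27648 spots to 13824 probes) and each array was centred on its median. A cow's value needed both arrays, a probe needed values in 5 or more cows per group, and a gene was the mean over its probes. Of the probes, 8645 had 1 symbol, 105 several and 5074 none; symbols came from the platform annotation and were updated through gene IDs for 8620 probes (assembly ARS-UCD2.0), with no coordinates, since the array's build is not named. Groups were compared with limma 3.58.1 (lmFit, eBayes) in R 4.3.3, two-sided, with Benjamini-Hochberg adjustment over 6958 genes; the fit was tested on simulated data. Nothing states that cows' samples differ in batch, and the number of arrays limits the precision. Replicate numbers only name cows.

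Members and lists were chosen with earlier results of these data known. Values are given in full for the 4 members of smallest p in each role, GSPT1, and EIF2S1, EIF2AK3, EIF2AK4, EIF4E, EIF4EBP1, EEF2K and EEF2; others that passed, had probes that disagree or had extreme values were named after their values were seen. Alternatives covered scaling, dye, missing values, model, threshold and each cow left out. Marker lists for macrophages, lymphocytes, neutrophils, stellate cells and fibroblasts, endothelium, bile duct, blood and hepatocytes were measured; of those not given elsewhere, 2 of 5 lymphocyte genes fell (GNLY, PTPRC) and 1 rose (CD79B), 1 of 5 bile duct genes fell (KRT8), 1 of 2 neutrophil genes rose (MMP9), and none passed of 8 stellate and fibroblast, 4 endothelial and 2 blood genes. Figures were drawn with matplotlib 3.10.9.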

Additional observations from a re-analysis of the deposited data

Results flagged for a closer look

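The search for single cows that stand apart covered 64 groups of cows. They came from the 30 members with values in full or named by rule, and from the share of spots without a ratio and the spread of the ratios. In 7, all of members, a cow's gap to the next was large for the range of its group. Chance gives about 3.2 in the 64. Healthy cow 7 was that cow for EEF1B2, at -1.12 with the next healthy cow at 0.0099, and for EIF3L, at 1.19 with the next at -0.49. Ketotic cow 5 was that cow for EEF2, at -1.19 with the next at -0.76, for EIF3L, at -2.28 with the next at -1.55, and for IARS2, at -1.25 with the next at -0.54. In EEF2K healthy cow 4 stood at -0.12, below the next at 0.50. In EIF3H ketotic cow 1 stood at -0.90, above the next at -1.45.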

How the results depend on the processing

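The count of members that fell (16) was 42 with the values as deposited (63.6%, against 35.4% of all genes), 26 with cows weighted (39.4% against 18.5%) and 28 at a threshold of 0.10. It was 4 with centring on the probes measured on all arrays and 4 with centring on the probes that passed (an alternative added after seeing the data). It was 5 with one spread, 5 with quantile scaling (7.58% against 7.72%) and 9 with a cow of 1 usable array kept (12.5% against 8.22%). A threshold of 0.01 gave 1. With the liver in Cy3 only, 13 of 69 members fell (18.8% against 8.73%). The count was 0 with the liver in Cy5 only, where 11 genes of all fell. It was also 0 with the share of spots without a ratio as covariate. That share itself differed between the groups (median 16.2% in ketotic and 10.6% in healthy cows), so the covariate overlaps with the group. The count that rose (1) was 2 with the common probes, quantile scaling, the passing probes, values in all 7 cows, a trended and robust fit, the exact permutation test (17 fell there, of 53 members) and a threshold of 0.10. It was 0 with the values as deposited, the liver in Cy3 only or in Cy5 only, exact zeros left out, cows weighted, the covariate, a threshold of 0.01, and without ketotic cow 5 and healthy cow 7 together (added after seeing the data). Leaving out 1 cow gave 6 to 24 falls and 0 to 2 rises. The causes were not tested.

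Under 1 or more of 32 other settings 23 of the 66 members changed sign, HARS2 alone among those past the threshold. Of the members given in full, signs turned for TARS2 (-0.38 as deposited, -0.062 with one spread, -0.078 with quantile scaling, -0.69 with Cy5 only, -0.24 with a cow of 1 array kept, -0.023 with the covariate, -0.13 to 0.25 with 1 cow left out), EIF2AK4 (-0.15 as deposited, -0.046 with Cy5 only), EIF2S1 (0.019 with the covariate), EIF4E (0.0058 with one spread), HARS2 (0.076 with ceiling values kept) and WARS2 (0.0088 with Cy5 only). Of 66 members, 52 were negative and 5 positive in both dyes, and 9 opposite. The same counts over all genes were not made. No paired analysis was possible because the replicate numbers pair no cows. The labels name no batch, and dim spots could not be filtered without scanner intensities.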
